A study of Mus musculus with 23 samples.

Results

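Chaperones are the proteins that fold, refold and assemble other proteins, and the heat shock proteins are the best known of them. HSP70 proteins bind exposed hydrophobic stretches of a client and cycle with ATP, DNAJ (HSP40) proteins bring clients to HSP70 and start its ATP hydrolysis, and HSP90, HSP110, small HSPs, the ring-shaped CCT complex and HSP60 with its lid HSP10 take further steps. In the endoplasmic reticulum (ER) a separate set, with BiP (Hspa5), GRP94 (Hsp90b1) and the protein disulfide isomerases (PDIs), folds secreted proteins and rises with the unfolded protein response, a program that secretory cells of the gut, such as Paneth and goblet cells, depend on.

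The genes described here were taken by name from the GENCODE vM21 annotation: the HSP70, HSP90, HSP110, small HSP and HSP60/HSP10 genes, the DNAJA, DNAJB and DNAJC genes, the CCT subunits Cct2 to Cct8 and the PDI genes. Of 91 symbols that match, 87 were counted among the 22350 genes of the RNA-seq tables. The 3 pseudogenes Cct3-ps1, Dnaja1-ps and Dnajc19-ps and Cct6a, which vM21 lists as a processed transcript, were not counted. By the place where their proteins work, 50 genes were set in the cytosol, 18 in the ER and 10 in mitochondria, and 9 were left unplaced. The largest families were DNAJC with 28 genes, HSP70 with 13 and DNAJB with 13.

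The study asked how loss of Raptor, an essential part of the growth kinase complex mTORC1, changes intestinal stem cells and what they translate. RNA-seq covered organoids, which are cultured mini-guts: WT organoids (VillinCre.ERT2.RPL22.HA, untreated), Rptor fl/fl organoids (VillinCre.ERT2.Rptor.fl/fl, untreated in the label) and stem cell enriched organoids (SCe, VillinCre.ERT2.RPL22.HA with 10 µM CHIR 99021 and 1.5 mM valproic acid). Ribosome profiling (Ribo-seq), which sequences the mRNA stretches that ribosomes protect, covered SCe organoids, organoids labelled VillinCre.ERT2.Rptor.fl/fl.RPL22.HA, and the intestine of mice with Lgr5Cre.ERT2.RPL22.HA (WT) or Lgr5Cre.ERT2.Rptor.fl/fl.RPL22.HA. All are C57BL/6, and the mice were adults of both sexes. The RPL22-HA tag lets ribosomes be pulled down from the cells in which the Cre has acted, those of the epithelium for Villin and the stem cells for Lgr5. The labels call the Rptor fl/fl organoids and the mice untreated, whereas the study's methods describe induction with tamoxifen. The RNA-seq organoids of WT and Rptor fl/fl were 2 lines each with 2 technical libraries a line, summed here, and each other group had 3 libraries. It is not stated for every group that its samples came from separate cultures or animals, so p-values measure the spread between these samples. In the labels the WT organoids carry RPL22.HA and the Rptor fl/fl RNA-seq organoids do not, so the effects of the 2 alleles cannot be told apart. Only the SCe organoids had CHIR 99021 and valproic acid. In every comparison of organoids labelled Rptor fl/fl with SCe, the effects of genotype and of these compounds cannot be told apart.

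Depth and identity of the libraries set limits. RNA-seq libraries held 23802944 to 67598878 counted reads, and Ribo-seq libraries 772077 to 8257457 footprints, the fewest in WT mice. Rptor itself was at 51.5 and 47.9 CPM (counts scaled to library size) in WT, 60.8, 54 and 53.7 in SCe, and 14.8 and 15.5 in Rptor fl/fl RNA-seq organoids. In the organoid Ribo-seq it was at 15.2, 41.9 and 21 CPM in SCe and 17.3, 18.7 and 16 CPM in the Rptor-labelled libraries, which overlap. Footprints of the stem cell marker Lgr5 were at 378, 449 and 640 CPM in SCe and lower, at 206, 206 and 212 CPM, in the latter libraries. These 3 are called Rptor-labelled below. In mice Rptor footprints were at 41.7, 39.7 and 44.7 CPM in WT and 32.6, 34.4 and 36.9 CPM in Rptor fl/fl. Smooth muscle genes summed to 1267 to 1481 CPM, immune genes to 4652 to 6180 CPM and pancreatic acinar genes to 1434 to 3692 CPM in the mouse libraries, and Lgr5 was at only 6.32 to 45.8 CPM there, so markers of cells outside the Lgr5 lineage were present after the pulldown. The first SCe RNA-seq library stood apart from the other 2, with a chi-square per degree of freedom of 172 and 192 against 19.8 between those, and counts are given with and without it.

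Of the 87 genes, 63 had enough counts for a test in all 6 comparisons, 14 in some, and 10 in none. These 10 are Cct8l1, Dnajb3, Dnajb8, Dnajb13, Dnajc5b, Dnajc5g, Hspa1l, Hspb2, Hspb3 and Hspb9, and the highest count of any of them in any line or sample was 13. In all, 50 genes passed the test (edgeR quasi-likelihood test, adjusted p under 0.05 over all genes tested) in at least 1 comparison. The comparisons share their groups: WT, SCe and Rptor fl/fl RNA-seq organoids each enter 2 of the RNA comparisons, so these 3 are not independent of each other. Groups without overlap were common. For Rptor fl/fl against WT RNA, 4919 of 14131 genes lay lower and 4841 higher. For SCe against WT RNA it was 5245 and 5063 of 14925, and for Rptor fl/fl against SCe RNA 5178 and 5111 of 15103. For footprints it was 2093 and 2159 of 10817 in organoids, and 1784 and 1800 of 11515 in mice.

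The promoter letters of the known stress elements are shown first, since 4 of the ER genes with the results given further on hold the ER stress element and heat shock elements beside the mitochondrial pair Hspd1 and Hspe1 overlap. The ER stress element was searched as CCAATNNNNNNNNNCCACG on both strands of the RefSeq promoter (GRCm38.p6, 250 bases before to 50 after the start site). It was in 4 of the 16 ER genes with a promoter in the table (25%), in none of the 43 cytosolic genes, and in 37 of 27025 promoters in all (0.137%). Each line below is a window of 30 bases read 5′ to 3′ on the strand of the gene, with the fixed letters of the element in capitals: Hspa5 at chr2:34772020-34772049 on the plus strand, Pdia6 at chr12:17266486-17266515 on the plus strand, Dnajc3 at chr14:118937822-118937851 on the plus strand, and Hsp90b1 at chr10:86705632-86705661 on the minus strand.
Hspa5: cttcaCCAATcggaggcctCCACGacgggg
Pdia6: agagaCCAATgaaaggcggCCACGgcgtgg
Dnajc3: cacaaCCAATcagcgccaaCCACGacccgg
Hsp90b1: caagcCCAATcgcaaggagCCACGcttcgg
Hsp90b1 has another match on the other strand, from 107 to 89 bases before its start site. In Hspa5 the match runs from 65 to 47 bases before the start.

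The heat shock element was searched as GAANNTTCNNGAA on both strands. It was in 4 of 72 members with a promoter (5.56%), namely Hspd1, Hspe1, Dnajb6 and Hsph1, and in 179 of 27025 promoters (0.662%). The shorter pair GAANNTTC or TTCNNGAA was in 15 of 43 cytosolic genes (34.9%), 1 of 16 ER genes (6.25%) and 17% of all promoters. Hspd1 and Hspe1, which encode mitochondrial HSP60 and HSP10, lie head to head on chromosome 1 with annotated ends that overlap by 112 bases, and the matches shown overlap in 1 shared stretch, read from opposite strands. The windows are at chr1:55088050-55088079 on the minus strand for Hspd1, chr1:55088056-55088085 on the plus strand for Hspe1 and chr5:29735844-29735873 on the plus strand for Dnajb6, with the same use of capitals.
Hspd1: gccttccgGAAggTTCtaGAAcggaccgtg
Hspe1: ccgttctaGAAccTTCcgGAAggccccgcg
Dnajb6: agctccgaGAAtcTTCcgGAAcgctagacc
A match is a description of letters only.

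Per length, the cytosolic chaperones led. In WT organoids the authors' TPM averaged 1894 ± 128 (SD, n = 2 lines) for Hsp90ab1, the constitutive HSP90, and 1686 ± 18.7 for Hspa8, the constitutive HSP70. They were followed by Hspd1 at 544 ± 36.7, Pdia3 at 450 ± 8.72, Hsp90b1 at 448 ± 4.91, Hspe1 at 396 ± 9.59 and Hspa5 at 392 ± 31.7 TPM. The levels of Pdia3 and Hsp90b1, and of Hspe1 and Hspa5, differed by less than their spread. The inducible HSP70 genes Hspa1a and Hspa1b were low in RNA-seq, between 1.67 and 26.8 CPM in all lines and samples. Hspa8 and Hsp90ab1 did not pass the test in any of the 6 comparisons.

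The first question was what loss of Raptor does to chaperone mRNA in organoids. Of the 18 ER genes, 7 fell in Rptor fl/fl against WT organoids and none rose, while 11 did not pass, 6 of all 18 having a positive log2 change and the median being -0.21. Of all 73 members tested, 17 fell (23.3%) and 2 rose (2.74%), where 11.0% of the 14131 genes tested fell and 11.6% rose. The median of the members was -0.14 on the log2 scale, against -0.00 over all genes. Of the 39 cytosolic genes 8 fell and 1 rose, of the 10 mitochondrial genes 1 fell, and none of the 6 CCT genes passed the test.

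Among the ER genes, Hspa5 (chromosome 2, 34771970 to 34777547), the HSP70 of the ER lumen, was at 789 and 713 CPM in WT and at 503 and 496 CPM in Rptor fl/fl. Both Rptor fl/fl lines lay below both WT lines, a log2 change of -0.59 (SE 0.0836, adjusted p = 0.0177 by edgeR). Pdia6 (chromosome 12, 17266545 to 17284770), a disulfide isomerase that works with BiP, was at 300 and 300 CPM against 196 and 204 CPM. It fell by 0.59 on the log2 scale (SE 0.0598, adjusted p = 0.0111), with no overlap. Dnajb11 (chromosome 16, 22857845 to 22879634), a DNAJ partner of BiP, was at 102 and 102 CPM against 68.5 and 69.4 CPM and fell by 0.56 (SE 0.0497, adjusted p = 0.0104). Dnajc3, an ER protein known as P58IPK that also holds back the kinase PERK, was at 138 and 145 CPM against 105 and 108 CPM and fell by 0.41 (adjusted p = 0.0173). Hsp90b1, the HSP90 of the ER, was at 924 and 928 CPM against 712 and 715 CPM and fell by 0.38 (adjusted p = 0.0293). Pdia4 fell by 0.28 (adjusted p = 0.0293) from 165 and 169 to 139 and 135 CPM. In each of these 6 genes both Rptor fl/fl lines lay below both WT lines. Such separation was common with 2 lines a group, and 4919 of the 14131 genes tested lay lower in this way. Pdia3, which folds glycoproteins with calnexin and calreticulin, was at 622 and 662 CPM against 524 and 533 CPM and did not pass the test (log2 change -0.28, adjusted p = 0.0565). Dnajb9, a BiP regulator, was at 33.1 and 32.3 against 24.6 and 29 CPM (log2 change -0.29, adjusted p = 0.12).

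**Figure D1:**
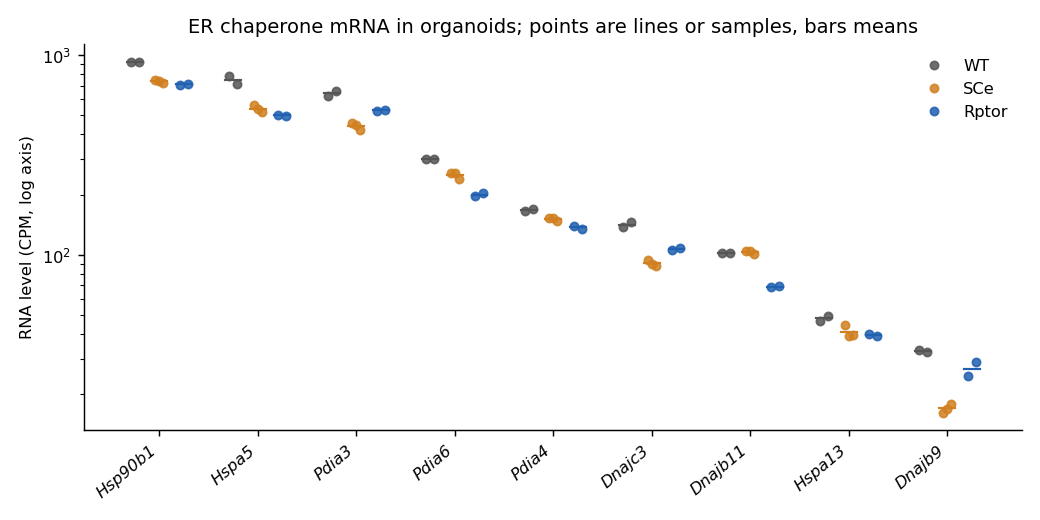
RNA level in CPM (log axis) of 9 ER chaperone genes in the 3 organoid groups, with a point for each line or sample and a bar at the group mean. Hspa5 lies at 713 and 789 CPM in WT and at 496 and 503 CPM in Rptor fl/fl, and Dnajb9 is lowest in SCe, at 16.1 to 17.8 CPM.

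Of the other genes of the ER folding pathway, 13 of 31 fell and 1 rose, with a median log2 change of -0.27. These are 41.9% and 3.23%, against 11.0% and 11.6% over all genes tested. Sdf2l1, a partner of BiP and DNAJ proteins, changed by -1.10 (SE 0.0813, adjusted p = 0.00891 by edgeR), Manf, a BiP-binding secreted protein, by -0.60 (adjusted p = 0.00983), Derl3, a factor of ER-associated degradation, by -2.58 (adjusted p = 0.0109) and Edem1, which marks misfolded glycoproteins for it, by -0.42 (adjusted p = 0.019). The levels of cell type markers moved as well. Paneth cell genes, all 5 of the list detected, summed to 4128 and 4915 CPM in WT and to 743 and 1566 CPM in Rptor fl/fl, and the 5 stem cell genes to 3561 and 5127 against 803 and 2042 CPM. The 6 goblet cell genes went the other way, from 1567 and 1669 to 2836 and 3900 CPM. In bulk samples, fewer cells of a type and less RNA per cell cannot be told apart, and the part of these shifts in the ER result was not tested.

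In the cytosol, Hspa4l, an HSP110-like nucleotide exchange factor for HSP70, was at 112 and 123 CPM in WT and at 74.9 and 79.1 CPM in Rptor fl/fl and fell by 0.61 (SE 0.0706, adjusted p = 0.0134). Hspa14 and Dnajc2, which sit with nascent chains at the ribosome, fell by 0.44 (60.1 and 60.1 to 46.2 and 42.5 CPM, adjusted p = 0.0196) and by 0.35 (82.7 and 85.3 to 67.5 and 64.1 CPM, adjusted p = 0.021). Dnaja1, a main DNAJ partner of Hspa8, fell by 0.32 (214 and 230 to 185 and 172 CPM, adjusted p = 0.0417). All 4 were lower in both Rptor fl/fl lines than in either WT line, a separation that was common over all genes (counts above). Dnajb4 fell by 0.62 (20.9 and 25.5 to 14.3 and 15.9 CPM, adjusted p = 0.0348), and Dnajc9, a histone chaperone, by 0.37 (adjusted p = 0.0366). The 2 genes that rose were Dnajc27, with a log2 change of 0.80 (4.1 and 3.87 to 7.82 and 6.09 CPM, adjusted p = 0.0374), and Dnajc5, the synaptic vesicle co-chaperone known as cysteine string protein, with 0.41 (137 and 130 to 186 and 167 CPM, adjusted p = 0.0283). Dnajc22 fell by 0.33 (adjusted p = 0.0233). Hsp90aa1, the inducible HSP90, was at 750 and 731 against 624 and 529 CPM and did not pass (log2 change -0.36, adjusted p = 0.0692). The log2 changes of the CCT genes were 0.00 for Cct2, -0.05 for Cct3, -0.20 for Cct5 and -0.14 for Cct8, and none passed. Of the other cytosolic folding factors, 3 of 30 fell (10%) and 1 rose (3.33%), against 11.0% and 11.6% over all genes tested. Pfdn1 and Vbp1 of prefoldin, which hands actin and tubulin to CCT, changed by -0.28 (adjusted p = 0.04) and -0.33 (adjusted p = 0.0442). Fkbp4, an HSP90 co-chaperone, changed by -0.27 (adjusted p = 0.048), and the small HSP Cryab by 3.80 (adjusted p = 0.0307).

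In mitochondria, Dnajc15, a DNAJ protein of the import motor, was at 26.6 and 28.6 CPM in WT and at 20.1 and 20.6 CPM in Rptor fl/fl, and was the gene that fell, by 0.44 (adjusted p = 0.028). Hspd1 was at 984 and 910 CPM against 958 and 879 CPM (log2 change -0.04, adjusted p = 0.751), Hspe1 at 164 and 172 against 152 and 151 CPM (-0.15, adjusted p = 0.129) and Hspa9, the HSP70 of the matrix, at 765 and 731 against 797 and 749 CPM (0.05, adjusted p = 0.692). The levels of Hspd1 and Hspa9 overlapped between the groups. Of 15 other mitochondrial folding and protease genes, 4 fell (26.7%) and 1 rose (6.67%), against 11.0% and 11.6% over all genes tested. Among them Atf5, the factor tied to the mitochondrial unfolded protein response, changed by -1.21 (adjusted p = 0.00891) and Lonp1, a matrix protease, by -0.48 (adjusted p = 0.0441). Grpel1, the exchange factor for Hspa9, changed by -0.28 (adjusted p = 0.0385) and Trap1, the HSP90 of mitochondria, by 0.26 (adjusted p = 0.0325). With 2 lines a group the call of single genes was weak: without WT line 1 or WT line 2 it was 4 members that passed, without Rptor fl/fl line 1 it was 9 and without line 2 it was 8, against 19. Dnajb11, Hspa4l and Pdia6 passed in each of these 4 fits, Hspa5 in all but the fit without WT line 1, and Hsp90b1, Pdia4 and Dnaja1 in none of them. In all, 13 of the 16 named here that passed lost their call in at least 1 fit. At a threshold of 0.01 none passed, and with an offset for the effective length of the transcripts 12 passed, all of them lower.

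**Figure D2:**
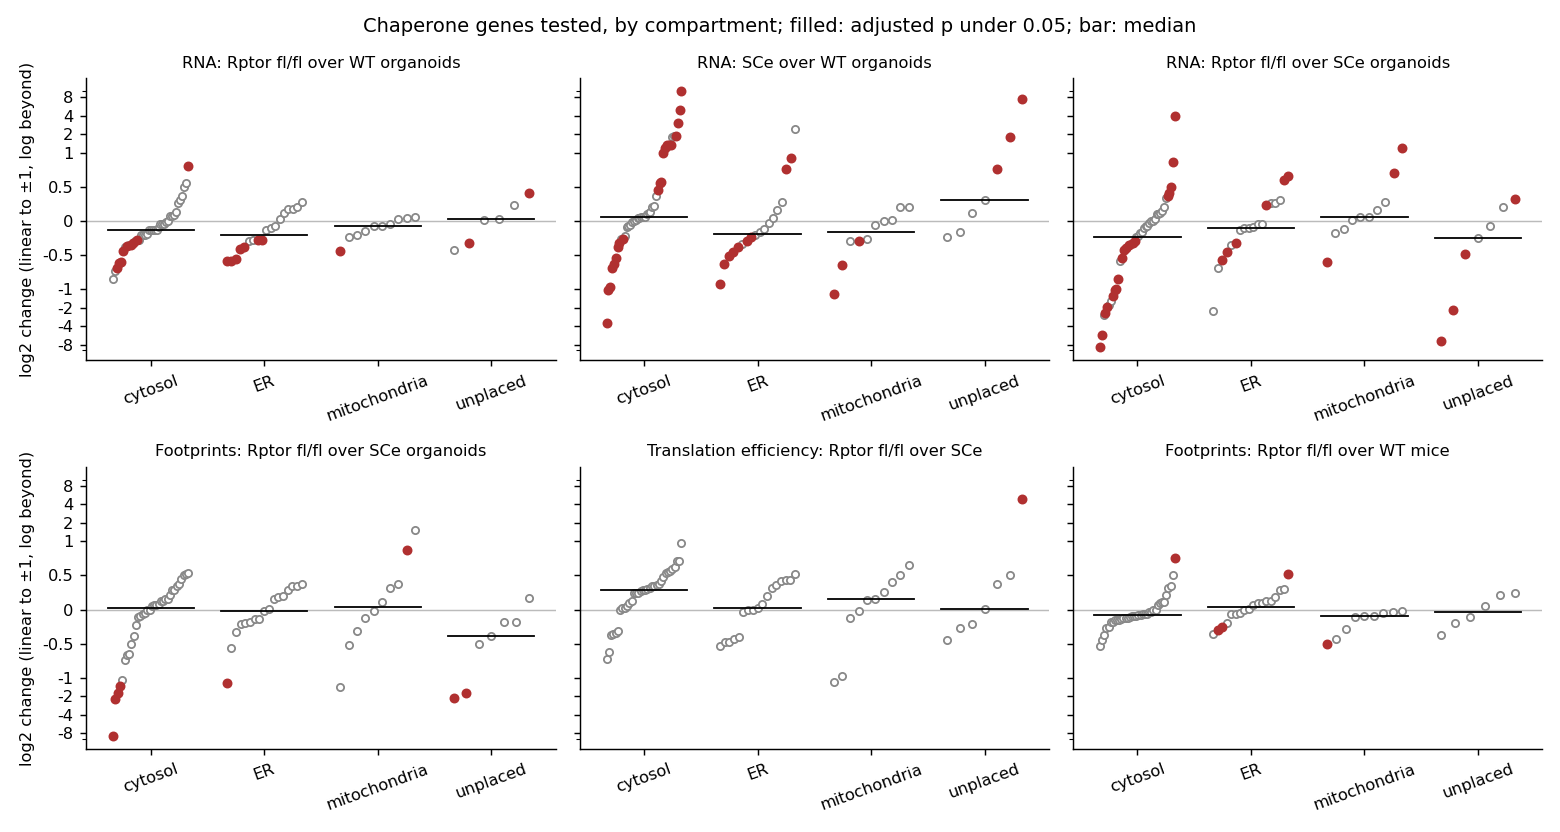
Log2 change of each member tested in the 6 comparisons (1 panel each), by compartment, on an axis that is linear to 1 in both directions and logarithmic beyond. Filled points passed the edgeR test at an adjusted p under 0.05, open points did not, and bars are medians. ER genes lie lower in the panels of Rptor fl/fl and of SCe over WT RNA, with medians of -0.21 and -0.19, and members lie higher in the panel of translation efficiency, where 1 point is filled.

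SCe organoids were next compared with WT. The chaperones split: 17 members rose and 19 fell of 77 tested (22.1% and 24.7%), where 22.4% of the 14925 genes tested rose and 19.9% fell, and the median was 0.02 both for members and for all genes. ER genes again leaned down, with 7 lower and 2 higher of 18 and a median of -0.19, while 12 cytosolic genes rose and 9 fell of 42. Without the first SCe library 25 members rose and 26 fell. Without WT line 1 or WT line 2 it was 12 or 11 that passed in all, and without the third SCe library 23, against 36. Dnajb1, Dnajb7, Dnajb9, Dnajc1, Dnajc3, Dnajc6, Dnajc12, Hspa12a and Hspb11 passed in each of the 5 fits that left out 1 replicate, and the other 15 named here lost their call in at least 1.

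The genes that rose were mostly low or silent in WT. Hspb1, Dnajc6 and Hspa12a, with at most 9 reads in a WT line, passed the count filter only through SCe. For these genes only a rise could be called, so their calls describe levels and do not test a direction. Hspb1 (chromosome 5, 135887919 to 135889563), the small HSP known as HSP25 in mouse, was at 0.0189 and 0.0202 CPM in WT, with 1 read in each line, and at 6.49, 28.6 and 32.1 CPM in SCe. The ratio of pooled rates was 1309, with an exact 95% counting interval of 362 to 10814 that covers counting error only. All SCe samples lay far above both WT lines, though the edgeR call (adjusted p = 0.00484) was lost without either WT line. Dnajc6 (chromosome 4, 101496648 to 101642799), auxilin, which strips clathrin from vesicles with Hspa8, was at 0.0567 and 0.0202 CPM in WT and at 3.01, 9.28 and 10.8 CPM in SCe, a ratio of 221 (86.3 to 814). Hspa12a (chromosome 19, 58795750 to 58943654), a distant HSP70 relative, was at 0.17 and 0.121 CPM against 3.28, 4.92 and 4.63 CPM, a log2 change of 4.87 (SE 0.369, adjusted p = 0.00167). In Hspb1 and Dnajc6 the first SCe sample was the lowest of the 3. Hspb11, which is named as a small HSP and is a subunit of the intraflagellar transport complex, rose by 1.81 on the log2 scale (3.34 and 3.19 to 11.5, 11.5 and 11 CPM, adjusted p = 0.00159). Dnajc12, a co-chaperone of aromatic amino acid hydroxylases, rose by 1.34 (3.74 and 4.86 to 9.87, 11.5 and 10.7 CPM, adjusted p = 0.00553), Dnajc27 by 1.17 (adjusted p = 0.0047), Dnajc1, an ER membrane DNAJ protein, by 0.76 (adjusted p = 0.00259) and Hspbap1 by 0.76 (adjusted p = 0.00677).

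The inducible HSP70 genes, Hsph1 and Cct2 rose as well. Hspa1b was at 12.2 and 11.1 CPM in WT and at 26.8, 17.8 and 24 CPM in SCe, a log2 change of 0.99 (SE 0.198, adjusted p = 0.0155), and Hspa1a at 1.76 and 1.67 against 3.65, 4.21 and 4.97 CPM, a change of 1.34 (adjusted p = 0.00993). These 2 genes are near-identical copies that share reads, so their split is uncertain. With their counts summed the change was 1.04 (adjusted p = 0.00845). Hsph1, the cytosolic HSP110, rose by 0.56 (104 and 100 to 175, 129 and 143 CPM, adjusted p = 0.0294), and Cct2 by 0.57 (396 and 381 to 537, 612 and 558 CPM, adjusted p = 0.00827). The other CCT genes named did not pass, with log2 changes of -0.00 for Cct3, 0.05 for Cct5 and 0.13 for Cct8. Hspb8 was at 0.416 and 0.363 CPM in WT and at 0.0669, 1.29 and 2.68 CPM in SCe, which overlap.

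The members that fell were largely DNAJ genes and ER genes, though other genes of both kinds rose or did not pass. Dnajb1, the main heat-inducible DNAJ protein, was at 41 and 42.3 CPM in WT and at 27.5, 23.8 and 25.1 CPM in SCe, a log2 change of -0.69 (SE 0.0847, adjusted p = 0.00434), so it moved opposite to Hspa1b. Dnajb9 was at 33.1 and 32.3 against 16.1, 16.9 and 17.8 CPM and fell by 0.93 (SE 0.0809, adjusted p = 0.00207). Dnajc3 fell by 0.63 (138 and 145 to 94.2, 89.6 and 87.8 CPM, adjusted p = 0.0028). In all 3 genes the SCe samples lay below both WT lines and close together. Pdia3 fell by 0.51 (adjusted p = 0.00721), Hspa5 by 0.46 (563, 534 and 520 CPM in SCe, adjusted p = 0.0126), Hsp90b1 by 0.30 (adjusted p = 0.0247) and Pdia6 by 0.24 (adjusted p = 0.0417). Dnajb2 fell by 0.97 (adjusted p = 0.00627), Dnajc21, which helps form the large ribosomal subunit, by 0.54 (adjusted p = 0.00443), and Dnajb7 by 3.63 from levels of only 1.68 and 2.16 CPM (adjusted p = 0.0042). Dnajb7 passed the count filter only through WT, so only a fall could be called for it. Dnaja1 fell by 0.39 (adjusted p = 0.00965) and Hspe1 by 0.29 (adjusted p = 0.0262), while Hspd1 did not pass (984 and 910 against 697, 794 and 784 CPM, log2 change -0.30, adjusted p = 0.063). Dnajb11 stayed at 101 to 104 CPM in SCe, against 102 in both WT lines (log2 change 0.04, adjusted p = 0.606). Of the ER partners 13 of 31 fell (41.9%) and 5 rose (16.1%), against 19.9% and 22.4% over all genes tested. The falls were led by Edem1 at -1.03 (adjusted p = 0.00147) and Derl3 at -3.60 (adjusted p = 0.00177). The goblet genes summed to 244 to 428 CPM in SCe and the Paneth genes to 373 to 3170 CPM, both sums below WT. Of the Paneth genes Defa17, Defa24 and Ang4 were lower. Lyz1 (1254 and 1481 CPM in WT, 212, 1346 and 1642 CPM in SCe) and Mmp7 overlapped. The part of these shifts in the chaperone changes was not tested.

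Set against SCe, 6 of the 12 HSP70 genes tested (50%) were lower in Rptor fl/fl organoids and none was higher. Over all 15103 genes tested, 21.8% were lower and 21.0% higher. The family is set by symbol, so it includes Hspa4 and the HSP110-like Hspa4l. Of 10 DNAJB genes 4 were higher and 2 lower, and of 26 DNAJC genes 7 were higher and 5 lower. Only SCe had the enrichment compounds, so genotype and compounds cannot be told apart here or in the organoid footprints and translation efficiency below. Hspb1, Dnajc6 and Hspa12a were low in WT organoids as well (values above). They passed the count filter here only through SCe, so only a lower level in Rptor fl/fl could be called for them. Of all 77 members tested 21 were lower and 11 higher (27.3% and 14.3%), where 21.8% of 15103 genes were lower and 21.0% higher, with a median of -0.11 against -0.01. Without the first SCe library 30 were lower and 14 higher. Without Rptor fl/fl line 1 or line 2 it was 10 or 9 that passed in all, and without the third SCe library 16, against 32. Dnajb7, Dnajb11, Dnajc6, Dnajc12, Hspa4l, Hspa12a and Hspb11 passed in each of the 5 fits that left out 1 replicate, and the other 16 named here did not in at least 1. Hspa12a was lower by 5.51 on the log2 scale (adjusted p = 0.00168) at 0.0581 and 0.122 CPM in Rptor fl/fl, and Hspa4l by 1.05 (173, 157 and 148 against 74.9 and 79.1 CPM, SE 0.0961, adjusted p = 0.00206). Hspa2, an HSP70 best known from germ cells, was at 12.5, 25.2 and 26 CPM in SCe and at 4.41 and 3.34 CPM in Rptor fl/fl, a log2 change of -2.45 (adjusted p = 0.00764). Hspa1a was lower by 1.01 (adjusted p = 0.0236), but its split from Hspa1b is uncertain. The summed counts of the pair changed by -0.65 and did not pass (edgeR adjusted p = 0.0504). Hspa4 was lower by 0.30 (adjusted p = 0.0344), whereas Hspa8, at 2477, 2869 and 2902 against 2751 and 2497 CPM, did not pass (log2 change -0.07, adjusted p = 0.695). Hsph1 changed by -0.85 (adjusted p = 0.0176), Hsp90aa1 by -0.43 (adjusted p = 0.0269) and Cct2 by -0.55 (adjusted p = 0.0162). Goblet genes summed to 244 to 428 CPM in SCe and to 2836 and 3900 CPM in Rptor fl/fl, and enteroendocrine genes to 2.01 to 22.8 against 86.4 and 199 CPM, and their part in these differences was not tested.

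The ER genes divided. Dnajb11 was lower in Rptor fl/fl by 0.58 (104, 104 and 101 against 68.5 and 69.4 CPM, SE 0.0652, adjusted p = 0.00308) and Pdia6 by 0.32 (adjusted p = 0.0229), while Dnajb9 was higher by 0.66 (16.1, 16.9 and 17.8 against 24.6 and 29 CPM, SE 0.113, adjusted p = 0.00934) and Dnajc3 by 0.24 (adjusted p = 0.042). Hspa5 did not overlap, at 563, 534 and 520 CPM against 503 and 496 CPM, but did not pass (log2 change -0.11, adjusted p = 0.336). Of the ER partners 7 were higher and 6 lower of 31 (22.6% and 19.4%), near the 21.0% and 21.8% over all genes tested. Hspb1 and Dnajc6 were at 0.0774 and 0.0175 CPM and at 0.0581 and 0.0525 CPM in Rptor fl/fl, so the SCe to Rptor fl/fl ratio of Dnajc6 was 152 (69.6 to 414). Dnajb1 was higher in Rptor fl/fl by 0.50 (adjusted p = 0.0119), Dnajb2 by 0.86 (adjusted p = 0.00899), Dnajc14 by 0.60 (adjusted p = 0.00821) and Dnajb7 by 3.92 (adjusted p = 0.00301). Dnajb7 had too few SCe reads to pass the count filter without Rptor fl/fl, so only a higher level could be called for it. Hspb11 (-2.21, adjusted p = 0.00151), Dnajb5 (-1.99, adjusted p = 0.0055), Dnajc12 (-1.32, adjusted p = 0.00684), Dnajc15 (-0.61, adjusted p = 0.00654) and Dnajc1 (-0.46, adjusted p = 0.0094) were lower.

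**Figure D3:**
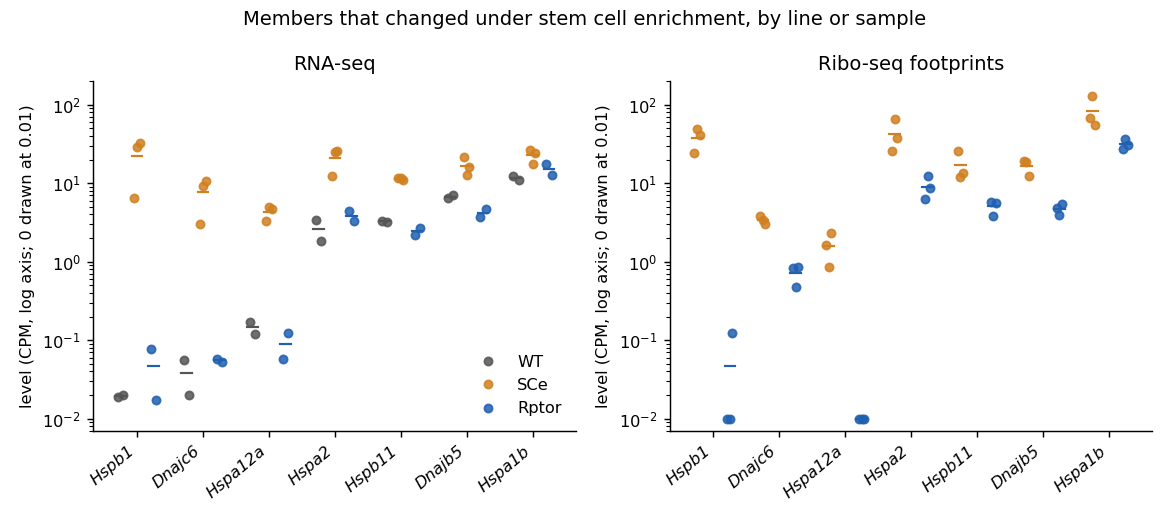
Levels in CPM (log axis, 0 drawn at 0.01) of 7 members in RNA-seq (left: WT, SCe and Rptor fl/fl) and in footprints of Ribo-seq (right: SCe and Rptor-labelled libraries), with a point for each line or sample and a bar at the mean. Hspb1 lies at 6.49 to 32.1 CPM in SCe RNA and under 0.1 CPM in the other RNA groups, and at 23.9 to 49.6 CPM in SCe footprints.

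Footprints of the organoids asked what is on ribosomes. In the Rptor-labelled libraries, 7 of 68 members were lower than in SCe and 1 was higher (10.3% and 1.47%), where 9.84% of the 10817 genes tested were lower and 6.63% higher, and the median was -0.02 for both. Hspb1 had 44, 58 and 175 footprints in SCe (23.9, 49.6 and 40.5 CPM) and 0, 0 and 1 in the Rptor-labelled libraries, a ratio of pooled rates of 780 with a counting interval of 139 to 30903 (edgeR adjusted p = 0.000192). Hspa2 was at 26, 65 and 37.7 CPM against 6.31, 12.2 and 8.65 CPM, a log2 change of -2.21 (SE 0.371, adjusted p = 0.0056). Dnajb5, a cytosolic DNAJ protein, was at 19, 18.8 and 12.5 against 4.82, 3.97 and 5.48 CPM, a change of -1.78 (SE 0.312, adjusted p = 0.00671). These 3 genes did not overlap between the groups and passed in each of the 6 fits that left out 1 library. Hspb1, and Dnajc6 below, passed the count filter only through SCe, so only a lower level could be called for them. Hspb11 (-1.75, adjusted p = 0.0152), Hspa1b (66.7, 129 and 54.8 against 27.4, 36.2 and 30.9 CPM, -1.37, adjusted p = 0.0195), Dnajc18 (-1.22, adjusted p = 0.0117) and Dnajc6 (3.8, 3.42 and 3.01 against 0.831, 0.476 and 0.853 CPM, -2.17, adjusted p = 0.0297) were lower too. These 4 lost their call without Rptor-labelled library 2 or 3. Hspb11 and Dnajc18 passed in 4 of the 6 fits, Hspa1b in 3 and Dnajc6 in only 1. With Hspa1a and Hspa1b summed the change was -1.37 (adjusted p = 0.0302).

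The gene that was higher was Hspd1 (chromosome 1, 55077835 to 55088243), the HSP60 that folds proteins in the mitochondrial matrix. Its footprints were at 1462, 1433 and 1610 CPM in SCe and at 2728, 2832 and 2754 CPM in the Rptor-labelled libraries. All 3 of these lay above all SCe libraries, a log2 change of 0.88 (SE 0.162, adjusted p = 0.00814). Hspe1, the HSP10 that closes its chamber, was at 693, 335 and 373 against 591, 630 and 593 CPM, with the first SCe library above the others, and did not pass (log2 change 0.37, adjusted p = 0.384). Hspa9 was at 1256, 1139 and 1534 against 1633, 1602 and 1655 CPM, which do not overlap, and did not pass (0.31, adjusted p = 0.259). Of the 10 mitochondrial members 5 had a positive and 5 a negative log2 change, with a median of 0.04.

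Among abundant cytosolic and ER chaperones no footprint level passed: the log2 change was -0.07 for Hspa8, 0.22 for Hsp90aa1, 0.07 for Hsp90ab1, 0.28 for Hspa5, 0.34 for Hsp90b1 and 0.20 for Pdia3, with adjusted p from 0.397 to 0.834. The first SCe Ribo-seq library was lowest in Hsp90b1, at 917 CPM against 1563 to 1865 in the other 5. Without that library 18 members passed, 13 lower and 5 higher, while without the second or the third Rptor-labelled library it was 3, against 8. Hspd1 lost its call without either of these, with log2 changes from 0.86 to 0.95 over the 6 fits. Of the partners, Fkbp5, an HSP90 co-chaperone, changed by -1.85 (adjusted p = 0.00951), Derl1 by -0.69 (adjusted p = 0.0243), Uggt1, the glycoprotein folding sensor, by -0.63 (adjusted p = 0.0292), the mitochondrial protease Htra2 by -0.80 (adjusted p = 0.0165), Hscb by -1.07 (adjusted p = 0.0348) and Clpx, of the ClpXP protease, by 0.70 (adjusted p = 0.0311). Marker genes differed between these libraries as well, with the stem cell gene Olfm4 at 416, 852 and 1160 CPM in SCe and 4322, 4675 and 4469 CPM in the Rptor-labelled libraries, while Lgr5 (given above) and Smoc2 (603, 1033 and 977 against 285, 283 and 270 CPM) went the other way, and the enterocyte genes summed to 442 to 1973 against 4111 to 4371 CPM. Their part in the footprint result was not tested.

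**Figure D4:**
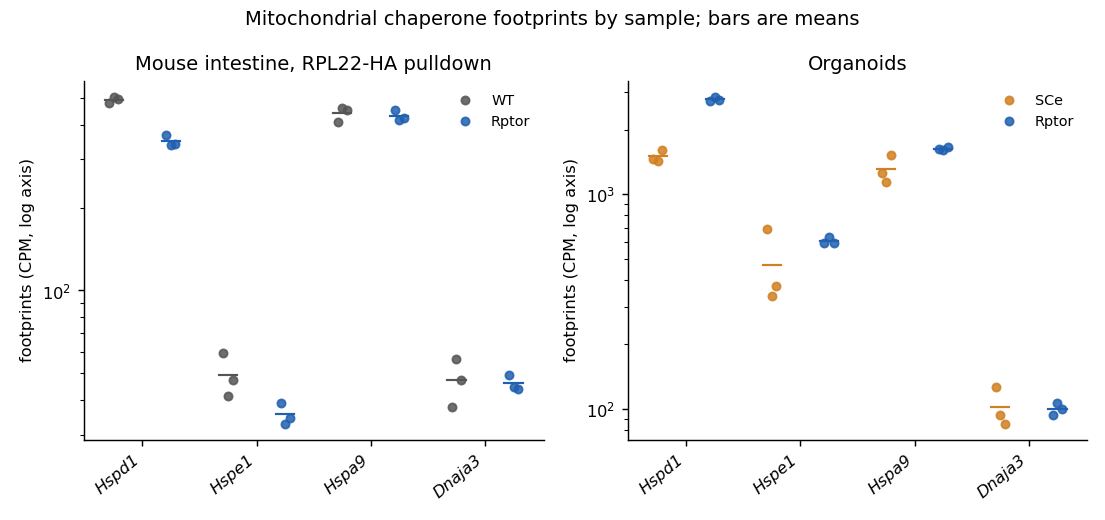
Footprints in CPM (log axis) of 4 mitochondrial chaperones in mouse intestine (left: WT and Rptor fl/fl) and in organoids (right: SCe and Rptor-labelled libraries), with a point for each sample and a bar at the mean. Hspd1 lies at 337 to 367 CPM in Rptor fl/fl mice, below WT mice at 479 to 502, and at 2728 to 2832 CPM in the organoid Rptor-labelled libraries, above SCe at 1433 to 1610.

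Translation efficiency was taken as the change in footprints beyond the change in RNA (the interaction of assay and group in 1 edgeR model). It reads as ribosome loading only if the RNA-seq and Ribo-seq organoids were in the same state, which was not tested. The members leaned up: 47 of 68 had a positive log2 change in the Rptor-labelled libraries over SCe and 21 a negative one, with a median of 0.25 against -0.03 over the 10747 genes tested. All 7 CCT genes tested and all 3 HSP90 genes were positive. Yet 1 member passed higher (1.47%) and none lower, where 1.12% of all genes were higher and 1.81% lower. By the same edgeR test 13 of the 68 members were under an unadjusted p of 0.05, as were 2177 of the 10747 genes. DESeq2 called 9 members higher and 1 lower, but its share over all genes was not computed, so these counts have no background. Among the positive changes were 0.71 for Hsp90aa1 (95% interval 0.25 to 1.17, adjusted p = 0.0922), 0.66 for Hspd1 (0.22 to 1.10, adjusted p = 0.0989), 0.55 for Cct2 (0.10 to 1.01, adjusted p = 0.164), 0.50 for Hspa9 (adjusted p = 0.287) and 0.48 for Hspa4 (adjusted p = 0.169). For Hspa8 it was 0.05 (adjusted p = 0.949) and for Hspa5 0.44 (adjusted p = 0.399). Negative changes were -0.72 for Hspa1b (adjusted p = 0.384), -0.43 for Dnajb9 (adjusted p = 0.546) and -0.38 for Dnajb1 (adjusted p = 0.415).

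The member that passed was Dnajc6, with a log2 change of 4.88 (SE 0.949, adjusted p = 0.0272). It rests on few reads: in Rptor fl/fl organoids it had 3 and 3 RNA reads while the Rptor-labelled libraries had 5, 3 and 7 footprints, so its RNA differed far more between the groups than its footprints. Without RNA-seq Rptor fl/fl line 1 or 2, SCe RNA library 2 or 3, or Rptor-labelled Ribo-seq library 1 or 3, no member passed. Without the first SCe Ribo-seq library 5 passed, and without the third 4. The RNA-seq and Ribo-seq organoids labelled Rptor fl/fl differ in genotype, since RPL22.HA is in the label of the latter alone, so the assay and the genotype cannot be told apart in the efficiency. Rptor RNA was lower than in SCe, while its footprints overlapped (values above). Paneth genes summed to 743 and 1566 CPM in Rptor fl/fl RNA, within the 373 to 3170 CPM of SCe. Their footprints summed to 4517 to 6005 CPM in the Rptor-labelled libraries, above the 2030 to 3181 CPM of SCe. The part of such differences in the efficiency was not tested. Of the partners, Txndc11 (-1.20, adjusted p = 0.0341) and Grpel2, an exchange factor for Hspa9 (-0.90, adjusted p = 0.0414), passed.

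**Figure D5:**
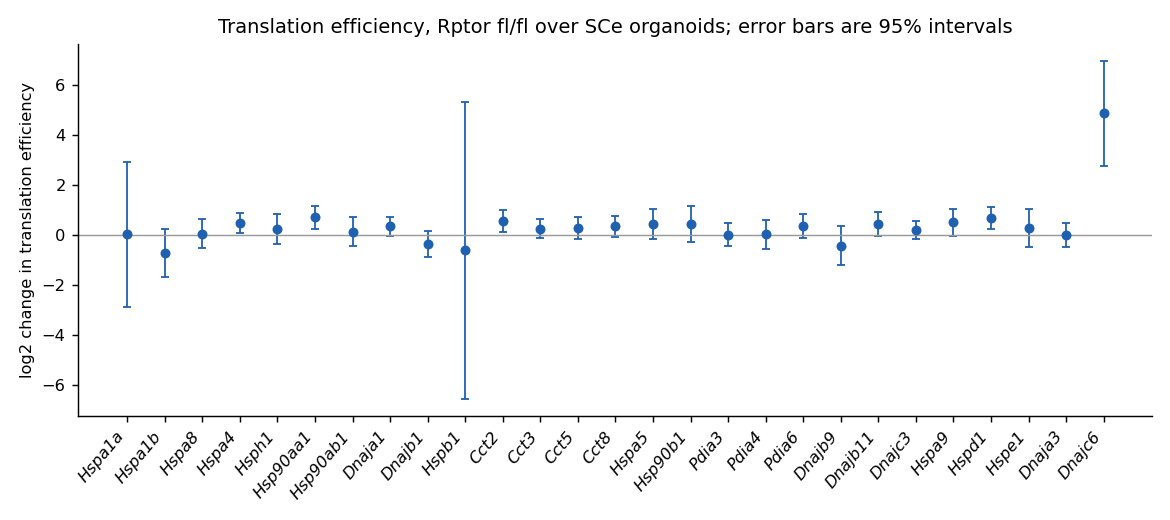
Log2 change in translation efficiency of the 27 members named for this comparison, in organoids labelled Rptor fl/fl over SCe, with 95% intervals from the edgeR model as error bars. Hspa1b, Hspb1, Dnajb9, Dnajb1 and Dnaja3 lie below 0 and the others at or above it, and the intervals of Hsp90aa1, Hspd1, Cct2, Hspa4 and Dnajc6 do not include 0.

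In mice the comparison asked what Rptor deletion in Lgr5 cells does to footprints. Few chaperones passed: 2 of 69 members were higher and 3 lower (2.9% and 4.35%), where 7.47% of the 11515 genes tested were higher and 5.97% lower, with a median of -0.07 against -0.02. All 9 mitochondrial members tested had a negative log2 change, from -0.51 to -0.02, and 1 passed. That was Hspd1, at 479, 502 and 496 CPM in WT and at 367, 337 and 339 CPM in Rptor fl/fl. The groups did not overlap, with a log2 change of -0.51 (SE 0.0708, 95% interval -0.66 to -0.36, adjusted p = 0.000191), and it passed in each of the 6 fits that left out 1 library. Hspe1 was at 59.4, 41.5 and 47.5 against 39.2, 32.9 and 34.4 CPM, also without overlap, and did not pass (-0.43, adjusted p = 0.0506). Hspa9 was at 407, 460 and 453 against 451, 414 and 422 CPM, which overlap (-0.05, adjusted p = 0.753). The log2 change of Hspd1 footprints was thus negative in mice and positive in the organoid comparison, whose reference was SCe and not WT, and the 2 were not set against each other in a test.

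In the ER, Pdia4 was at 255, 247 and 225 CPM in WT and at 218, 194 and 176 CPM in Rptor fl/fl mice and fell by 0.30 (SE 0.092, adjusted p = 0.0422), and Pdia6 at 220, 227 and 223 against 196, 171 and 194 CPM and fell by 0.26 (SE 0.081, adjusted p = 0.0488). Neither overlapped between the groups. Each passed in 1 of the 6 fits that left out 1 library, and for Hspa5, at 1102, 1057 and 1059 against 1037, 895 and 884 CPM, the test was not passed (-0.19, adjusted p = 0.109). Dnajb12, an ER membrane DNAJ protein that helps degrade misfolded membrane proteins, was at 27.8, 28.8 and 36.5 against 43.2, 54.2 and 43.8 CPM and rose by 0.52 (SE 0.144, adjusted p = 0.0271). Its groups did not overlap, and it lost its call without WT library 1 or 2 or Rptor fl/fl library 2. In the cytosol Hspa12a was at 24, 27.4 and 26.8 against 32.6, 49.6 and 50.4 CPM and rose by 0.76 (SE 0.169, adjusted p = 0.0073). It lost its call without the third WT library. Hspb1, almost absent from WT and Rptor fl/fl organoids alike, was at 17.7, 22.8 and 34.3 against 31.6, 34.4 and 39.3 CPM (0.35, adjusted p = 0.237). The mouse libraries held markers of cells outside the Lgr5 lineage (values above). Which cells the footprints of Hspa12a and Hspb1 came from was not tested.

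The main cytosolic chaperones had log2 changes of -0.13 for Hspa8, -0.16 for Hsp90ab1, -0.11 for Hsp90aa1, -0.27 for Hsph1 and 0.11 for Dnajb1, none of which passed. The CCT genes Cct2, Cct3, Cct5 and Cct8 changed by -0.15, -0.12, -0.08 and 0.00. Without the first Rptor fl/fl library, the one with Lgr5 at 45.8 CPM, 12 members passed, 10 of them lower. The share over all genes was not computed for that fit. Without WT library 1 or 2 or Rptor fl/fl library 2 it was 2, and without WT library 3 or Rptor fl/fl library 3 it was 3, against 5. Of the partners, Fkbp4 changed by -0.32 (adjusted p = 0.0152), Manf by -0.32 (adjusted p = 0.0488) and Serpinh1, the collagen chaperone of matrix-making cells, by 0.55 (adjusted p = 0.00625). Stroma genes summed to 870 to 933 CPM in WT and 1102 to 1307 CPM in Rptor fl/fl, Paneth genes to 7171 to 7846 against 3759 to 5047 CPM, and enterocyte genes to 36889 to 37858 against 41172 to 44935 CPM. In the enterocyte list Apoa1, Apoa4, Fabp1 and Alpi were higher in Rptor fl/fl without overlap, and Lct overlapped. Sis went the other way, from 6333, 6962 and 6455 CPM in WT to 5730, 5039 and 4313 CPM. These sums moved with the groups, and the part of such shifts in the changes of Hspd1, Hspa12a, Pdia4 and Pdia6 was not tested.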

How the data were processed

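RNA-seq and Ribo-seq tables of 23 libraries in 7 groups were used. According to the submitters' processing notes, adapters were trimmed with cutadapt 1.18 and reads were quantified with Salmon 1.1.0, with mm10 and GENCODE vM21. The authors deposited an estimated count (NumReads) and a TPM for each transcript. The estimated counts were summed by gene here, leaving out the 5′ entries with the suffix _uORF, and rounded to whole numbers, and the deposited TPM values were used only to compare levels between genes. The mouse Ribo-seq entries include the 5′ region. A deposited table of the authors' own comparisons (changes in translation efficiency with p-values) was not used. Stem cell depleted organoids are not analysed here.

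Technical libraries of a line were summed. Counts were scaled by TMM, filtered with filterByExpr, and tested with edgeR 4.0.16 in R 4.3.3 (glmQLFit, glmQLFTest), with Benjamini-Hochberg adjustment over all genes tested and a threshold of 0.05. Only the groups compared entered a fit. For translation efficiency, 1 model over both assays gave the assay-by-group term. DESeq2 1.42.0, other filters, offsets and thresholds, and leaving out each replicate were alternatives. CPM are counts over the TMM-scaled library size, set within an assay and system. Those of the 5′ entries are over the summed counts without TMM scaling. Ratios with at most 3 counts in each line or library of the low group have exact 95% intervals. The scripts were tested on simulated data.

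Members, compartments and partner lists were chosen with earlier results of these data known. Named in every comparison were the main members of each compartment. To these were added up to 15 members with the smallest adjusted p under 0.05 in each comparison and up to 4 partners per compartment. Olfm4 and Smoc2 were named after their values were seen. Depth was 23802944 to 67598878 reads for RNA-seq and 772077 to 8257457 footprints for Ribo-seq, and the shallow libraries, above all of WT mice, give the less precise levels.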

Additional observations from a re-analysis of the deposited data

Results flagged for a closer look

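The footprints on the 5′ entry of Dnajb4, the stretch before the coding start that the tables list apart and that no comparison above used, stood higher in every Rptor-labelled library than in every SCe library. They were at 3.34, 3.14 and 3.63 CPM (20, 20 and 30 footprints) against 2.02, 2.71 and 1.89 CPM (4, 3 and 8 footprints), a ratio of means of 1.53. These CPM are not TMM-scaled, unlike those of the rest of the gene. Dnajb4 was the 1 of 29 members with at least 10 such footprints in each Rptor-labelled library for which this held, and 2 of the 29 were lower in all of them. It was named for this separation alone. The same count over all genes with a 5′ entry was not made, so the 1 of 29 has no background. The rest of the Dnajb4 footprints were higher too, at 18.4, 21.1 and 21.8 against 10.9, 13.7 and 17.8 CPM, and the share of the gene's footprints on the 5′ entry overlapped, at 15.3, 13.1 and 14.4% against 16.7, 15.8 and 9.41%. The difference was not tested, and counts of 3 to 8 in SCe carry a wide counting error.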

How the results depend on the processing

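None of the named log2 changes that passed the test changed sign under any alternative. Counts of members that passed moved as follows, and the cause was not tested unless named. Shares over all genes were not computed for the alternatives, including the fits that left out 1 replicate. At a threshold of 0.01 they were 0 for Rptor fl/fl against WT RNA (19 at 0.05), 19 for SCe against WT (36), 15 for Rptor fl/fl against SCe RNA (32), 4 for organoid footprints (8), 0 for translation efficiency (1) and 2 for mouse footprints (5). With an effective length offset they were 12, 4 and 1 for Rptor fl/fl against WT RNA, organoid footprints and mouse footprints. DESeq2 gave 10 for translation efficiency and 2 for mouse footprints. Technical libraries taken as separate replicates gave 40 for Rptor fl/fl against WT. Leaving out 1 replicate, which also leaves fewer samples, gave 4 to 9, 11 to 51, 9 to 44, 3 to 18, 0 to 5 and 2 to 12 in the same order of comparisons. Where a group was left with 1 line, it was assumed to vary like the others.

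The replicate numbers do not pair the samples by the labels. Correlations of same-numbered deviations were 0.14 to 0.30 in RNA, over only 2 numbers, and -0.04 to 0.03 in Ribo-seq. With the replicate block the counts were 25, 15, 14, 7, 0 and 5 in the same order.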
